A study of Mus musculus with 6 samples.

Results

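The genes described here are the core of the leukaemia inhibitory factor (LIF) receptor and STAT3 signalling pathway: Lifr, Il6st, Jak1, Jak2, Stat3, Socs3, Pim1 and Pim3. These 8 genes were taken by name from a table of raw counts of 55416 genes, with symbols from GENCODE M39. All 8 were found, and all 8 passed the filter on low counts. The counts come from RNA-seq of epiblast-like cells (EpiLCs), the formative cells reached 48 h after naïve mouse embryonic stem cells (mESCs) leave 2i+LIF medium. WT EpiLCs came from the parental 46C line, an mESC line with a GFP reporter in Sox1, and Oct6 KO EpiLCs from 1 clone derived from it, in which both copies of Oct6 (also named Pou3f1) carry an insertion. There were 3 libraries of each genotype, numbered as pairs, and 6 in all. Both genotypes were differentiated on fibronectin in N2B27 with 1% KSR, bFGF and Activin A, and no LIF is listed for this medium. The sample labels give bFGF at 12 ng/ml and Activin A at 20 ng/ml, whereas the design text of the series gives the same figures in µg/ml. Since the KO cells are a single clone, the effect of the insertion and other differences of that clone cannot be told apart. The question addressed is how transcripts of the LIF pathway differ between WT and KO EpiLCs.

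LIF binds LIFR, which pairs with gp130, the product of Il6st. The receptor-bound kinases JAK1 and JAK2 then phosphorylate STAT3, which enters the nucleus and activates its targets. Among these are Socs3, whose product blocks the receptor and the JAKs in a negative feedback, and the Pim kinases, which favour survival and self-renewal. In naïve mESCs this pathway sustains self-renewal, and naïve cells lose the need for it as they become formative.

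Libraries held between 10995505 and 14680930 counts, and mitochondrial genes took 0.445% to 0.573% of them. Pou3f1 was counted at 142 ± 19.4 CPM in WT and 132 ± 7.59 CPM in KO (SD, n = 3; adjusted p = 0.574), so that its RNA level did not separate the genotypes and is no check of the KO. Summed over 5 pluripotency markers, levels ran from 1450 to 1598 CPM in WT and from 1366 to 1481 CPM in KO. Most of this sum is Pou5f1 and Lin28a, which were not called, whereas Nanog (0.75, adjusted p = 1.11e-04) and Sox2 (0.42, adjusted p = 0.0283) were called higher in KO by the edgeR test described below, with log2 fold changes in parentheses. The sum of 5 naïve markers ran from 144 to 145 CPM in WT and from 217 to 281 CPM in KO, and 4 of them were called higher. The 4 formative markers ran from 1722 to 1932 CPM in WT and from 1684 to 1871 CPM in KO, most of it Dnmt3b, which was not called, whereas Otx2 (0.92, adjusted p = 1.70e-04) and Fgf5 (0.65, adjusted p = 3.81e-04) were called higher in KO. Markers of other cell types were low: primitive endoderm markers ran from 4.06 to 4.78 CPM in WT and from 4.63 to 12.6 CPM in KO, mesendoderm markers from 5.68 to 6.49 and from 8.64 to 11.6 CPM, neural markers from 3.99 to 4.70 and from 1.20 to 2.62 CPM, and fibroblast markers from 10.2 to 19.8 and from 6.54 to 12.2 CPM. By the same test, 2 of 3 primitive endoderm markers tested and the 1 mesendoderm marker tested were called higher in KO. The 1 neural marker tested and 1 of 3 fibroblast markers tested were called lower, where 24.3% of all genes tested were called. No marker was at 0 in every library. The part of these differences in the levels of the LIF pathway genes was not tested. In bulk RNA, fewer cells that use a gene and less of its RNA per cell cannot be told apart.

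The promoters of the genes that the results turn on are shown first, as RefSeq (GRCm38.p6) gives them, each from 250 bases before to 50 after a start site and written 5′ to 3′ on the strand of the gene. They are those of Lifr (chr15:7129322-7129621 and chr15:7140292-7140591, plus strand), Il6st (chr13:112463820-112464119, plus strand), Stat3 (chr11:100939491-100939790, minus strand), Socs3 (chr11:117969317-117969616, minus strand), Pim3 (chr15:88861944-88862243, plus strand) and Pim2 (chrX:7878056-7878355, plus strand). Lifr, Il6st, Stat3 and Pim3 are shown because they differed between the genotypes, Socs3 because it holds the STAT motif, and Pim2, a further Pim kinase, because it holds the octamer that POU proteins such as OCT6 bind. Pim2 was added after its values were seen. Capitals mark the STAT motif TTCNNNGAA, which reads the same on both strands, in Socs3, and the octamer ATGCAAAT, on either strand, in Pim2.
Lifr, upstream promoter: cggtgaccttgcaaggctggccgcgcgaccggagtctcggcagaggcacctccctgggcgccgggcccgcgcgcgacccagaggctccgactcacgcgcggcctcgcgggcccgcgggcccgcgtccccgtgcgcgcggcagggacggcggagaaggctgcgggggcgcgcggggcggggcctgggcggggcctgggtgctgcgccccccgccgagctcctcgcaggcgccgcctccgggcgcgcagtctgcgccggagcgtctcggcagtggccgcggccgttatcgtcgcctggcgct
Lifr, downstream promoter: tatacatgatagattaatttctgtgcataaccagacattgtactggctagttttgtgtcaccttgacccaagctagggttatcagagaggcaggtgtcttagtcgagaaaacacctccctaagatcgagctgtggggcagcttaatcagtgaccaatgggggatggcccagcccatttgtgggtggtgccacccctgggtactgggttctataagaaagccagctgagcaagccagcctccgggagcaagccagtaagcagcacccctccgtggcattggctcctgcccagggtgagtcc
Il6st: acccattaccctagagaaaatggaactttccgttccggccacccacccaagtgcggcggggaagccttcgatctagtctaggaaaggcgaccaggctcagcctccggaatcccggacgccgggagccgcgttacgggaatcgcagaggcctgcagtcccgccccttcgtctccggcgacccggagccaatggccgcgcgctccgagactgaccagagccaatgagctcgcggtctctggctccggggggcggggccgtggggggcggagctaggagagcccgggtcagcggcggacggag
Stat3: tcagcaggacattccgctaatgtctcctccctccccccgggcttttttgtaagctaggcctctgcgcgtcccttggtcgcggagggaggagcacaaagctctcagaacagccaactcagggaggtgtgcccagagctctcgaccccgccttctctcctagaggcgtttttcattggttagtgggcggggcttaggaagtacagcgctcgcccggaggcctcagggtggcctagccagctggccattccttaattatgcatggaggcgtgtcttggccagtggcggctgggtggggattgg
Socs3: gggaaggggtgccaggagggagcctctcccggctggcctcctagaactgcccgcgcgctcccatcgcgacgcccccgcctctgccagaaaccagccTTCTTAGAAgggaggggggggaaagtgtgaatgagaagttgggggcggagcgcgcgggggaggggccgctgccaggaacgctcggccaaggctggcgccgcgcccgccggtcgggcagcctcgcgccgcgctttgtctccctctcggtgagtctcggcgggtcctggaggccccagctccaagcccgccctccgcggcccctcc
Pim3: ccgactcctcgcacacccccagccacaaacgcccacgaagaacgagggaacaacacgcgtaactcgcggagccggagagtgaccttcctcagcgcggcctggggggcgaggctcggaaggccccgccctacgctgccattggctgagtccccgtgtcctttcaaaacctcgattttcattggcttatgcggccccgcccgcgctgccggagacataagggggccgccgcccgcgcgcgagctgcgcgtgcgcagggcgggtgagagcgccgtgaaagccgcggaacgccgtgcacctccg
Pim2: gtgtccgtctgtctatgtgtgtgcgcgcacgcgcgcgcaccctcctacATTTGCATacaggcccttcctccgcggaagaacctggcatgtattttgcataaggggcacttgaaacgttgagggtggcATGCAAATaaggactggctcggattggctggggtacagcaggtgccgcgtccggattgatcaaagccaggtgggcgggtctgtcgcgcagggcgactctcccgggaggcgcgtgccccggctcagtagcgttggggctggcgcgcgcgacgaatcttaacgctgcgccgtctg

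All 8 genes had promoters in RefSeq, 10 in all. Socs3, the feedback inhibitor, was the only one with a STAT motif, TTCTTAGAA, whose first base lay at position −154 from the start site. No promoter of the 8 genes held the octamer. Among 32851 mouse promoters of the same length, 8.30% held the STAT motif and 1.74% the octamer. Of 72 further genes of the pathway, 48 had promoters there, 65 in all. The STAT motif was found in 5 of these 48 genes (Cish, Gab1, Zfp36, Bcl6 and Icam1) and the octamer in 1, Pim2, as ATTTGCAT from position −202 and ATGCAAAT from position −123. These are counts of genes, some with several promoters, whereas the shares of 8.30% and 1.74% are of single promoters. G and C made up from 49.0% (the second promoter of Pim1) to 81.3% (Lifr upstream and the first promoter of Pim1) of the 10 promoters of the 8 genes, beside a median of 52.7% over all promoters. A motif is a match of letters, and no binding was measured here.

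Both receptor chains, Lifr and Il6st, were higher in KO EpiLCs than in WT EpiLCs, and Stat3 and Pim3 were lower, while Jak1, Jak2, Socs3 and Pim1 did not pass the test. Lifr, the ligand-binding chain, was the most changed of the 8 genes.

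Lifr was higher in KO EpiLCs by nearly 1 on the log2 scale. The gene (ENSMUSG00000054263.13) lies on the plus strand of chromosome 15, from 7120095 to 7226970 in GRCm39. Its levels were 40.7, 48.3 and 55.2 CPM in WT replicates 1, 2 and 3, from 546, 529 and 816 counts. In KO they were 95.8, 92.2 and 97.2 CPM, from 1183, 1195 and 1292 counts. CPM are counts scaled to the TMM-normalized library size. Every KO library lay well above every WT library, and the spread was smaller in KO. Means were 48.1 ± 7.23 CPM in WT and 95.1 ± 2.58 CPM in KO (SD, n = 3), a 1.98-fold increase. The log2 fold change was 0.98, with a standard error of 0.11, a 95% confidence interval from 0.75 to 1.22 and an adjusted p of 7.62e-06 (edgeR's quasi-likelihood test, Benjamini-Hochberg over 15746 genes). In what follows a gene is called where this adjusted p is below 0.1.

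Il6st, which encodes the gp130 chain shared by the receptors of the IL-6 family, was also higher in KO EpiLCs, by less than Lifr. It lies on the plus strand of chromosome 13, from 112600604 to 112646620. Its levels were 23.6, 33.1 and 31.3 CPM in WT and 38.2, 46.5 and 43.1 CPM in KO. The groups did not overlap, although WT replicate 2 and KO replicate 1 were close. Means were 29.3 ± 5.07 CPM and 42.6 ± 4.16 CPM (SD, n = 3), with a log2 fold change of 0.54 (standard error 0.13, interval from 0.26 to 0.82) and an adjusted p of 0.00718. In each of the 3 numbered pairs both receptor chains were higher in KO, by 1.23, 0.93 and 0.81 on the log2 scale for Lifr and by 0.69, 0.49 and 0.46 for Il6st.

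**Figure D1:**
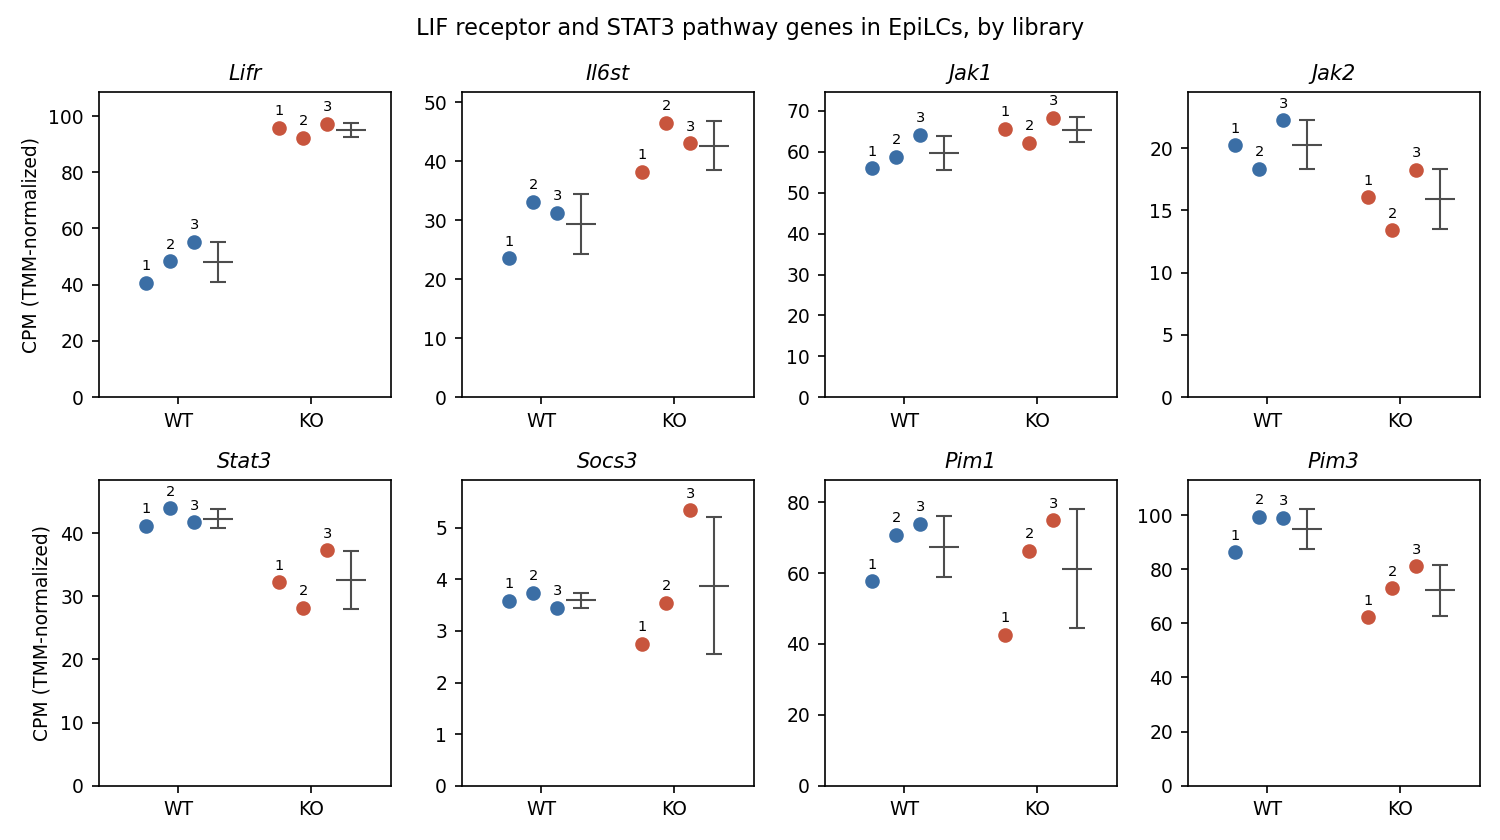
Levels of the 8 genes in each library, in CPM on linear axes that start at 0, with WT in blue and KO in red. Numbers are the replicates, and the bars beside the points give the mean and SD of 3 libraries. Lifr separates the genotypes most widely, from 40.7 to 55.2 CPM in WT and from 92.2 to 97.2 CPM in KO, while Jak1, Socs3 and Pim1 overlap.

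Neither of the kinases bound to the receptor was called. Jak1 (chromosome 4, minus strand, 101008838 to 101122487) was counted at 56.0, 58.8 and 64.2 CPM in WT and at 65.7, 62.2 and 68.3 CPM in KO, and the groups overlapped. Its log2 fold change was 0.13, with an interval from −0.083 to 0.35 and an adjusted p of 0.428, so that a change as large as that of Lifr lies outside the interval. The annotation of Jak1 overlaps that of Raver2 on the opposite strand, which had 4730 counts over the 6 libraries and a log2 fold change of 0.41 (adjusted p = 0.00645). The use of the strand in counting is not given in the sources used here, so reads of Jak1 and Raver2 may not be fully separated.

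Jak2 (chromosome 19, plus strand, 29228677 to 29290505), the other kinase of the receptor, had lower values in KO. Its levels were 20.2, 18.3 and 22.3 CPM in WT and 16.04, 13.4 and 18.3 CPM in KO. The lowest WT library and the highest KO library were almost the same. The log2 fold change was −0.35 (standard error 0.15, interval from −0.67 to −0.035) with an adjusted p of 0.121, above the threshold. A fit that paired the libraries by number (the replicate block) gave the same −0.35 and an adjusted p of 0.0518, which passed. It also passed without KO replicate 3, at −0.46 with an adjusted p of 0.0799.

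Stat3, the transcription factor of the pathway, was lower in KO EpiLCs. The gene (ENSMUSG00000004040.17) lies on the minus strand of chromosome 11, from 100775924 to 100830450. Its levels were 41.2, 44.0 and 41.7 CPM in WT and 32.2, 28.2 and 37.3 CPM in KO, without overlap. The WT libraries lay close together, and the KO libraries were more spread. Means were 42.3 ± 1.48 and 32.6 ± 4.55 CPM (SD, n = 3), and the log2 fold change was −0.38 (standard error 0.12, interval from −0.63 to −0.12) with an adjusted p of 0.0354. In numbered pairs the differences were −0.35, −0.64 and −0.16 on the log2 scale. The call rests on KO replicate 2, the lowest, since without it the change was −0.28 with an adjusted p of 0.194.

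Of the 3 target genes among the 8, only Pim3 was called. Pim3, a serine/threonine kinase that LIF induces in mESCs (chromosome 15, plus strand, 88746177 to 88749929), was counted at 86.2, 99.5 and 99.0 CPM in WT and at 62.3, 73.1 and 81.2 CPM in KO. All KO libraries were below all WT libraries. Means were 94.9 ± 7.54 and 72.2 ± 9.46 CPM (SD, n = 3), with a log2 fold change of −0.39 (standard error 0.11, interval from −0.63 to −0.16) and an adjusted p of 0.0165. Without KO replicate 1, the lowest, the change was −0.30 and the adjusted p 0.108.

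Pim1, its close relative (chromosome 17, plus strand, 29709581 to 29715086), was counted at 57.7, 70.8 and 73.9 CPM in WT and at 42.6, 66.3 and 74.9 CPM in KO. The groups overlapped, and KO replicate 1 lay below the other libraries. The log2 fold change was −0.14 (interval from −0.46 to 0.19, adjusted p = 0.606), and 0.063 without KO replicate 1. A gene whose annotation overlaps that of Pim1, Gm26885, had 155 counts in all.

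Socs3, the feedback inhibitor (chromosome 11, minus strand, 117856905 to 117860898), was the least abundant of the 8, with 34 to 71 counts per library. Its levels were 3.58, 3.74 and 3.45 CPM in WT and 2.75, 3.55 and 5.34 CPM in KO. The WT libraries were nearly alike, while the KO libraries reached both the lowest and the highest values. The log2 fold change was 0.12 with a standard error of 0.27 (interval from −0.46 to 0.69, adjusted p = 0.823), and it was −0.18 without KO replicate 3. A difference was not detectable at this depth and spread.

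In all, 4 of the 8 genes were called, Lifr and Il6st higher and Stat3 and Pim3 lower, where 24.3% of all genes tested were called, 11.8% higher and 12.5% lower in KO. None of the 8 was both called and changed by a log2 fold change of at least 1 in size, as 6.21% of genes were. In 5 of the 8 the groups did not overlap, beside 33.7% of all genes. The median log2 fold change of the 8 was −0.010 and that of all genes 0.0014.

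**Figure D2:**
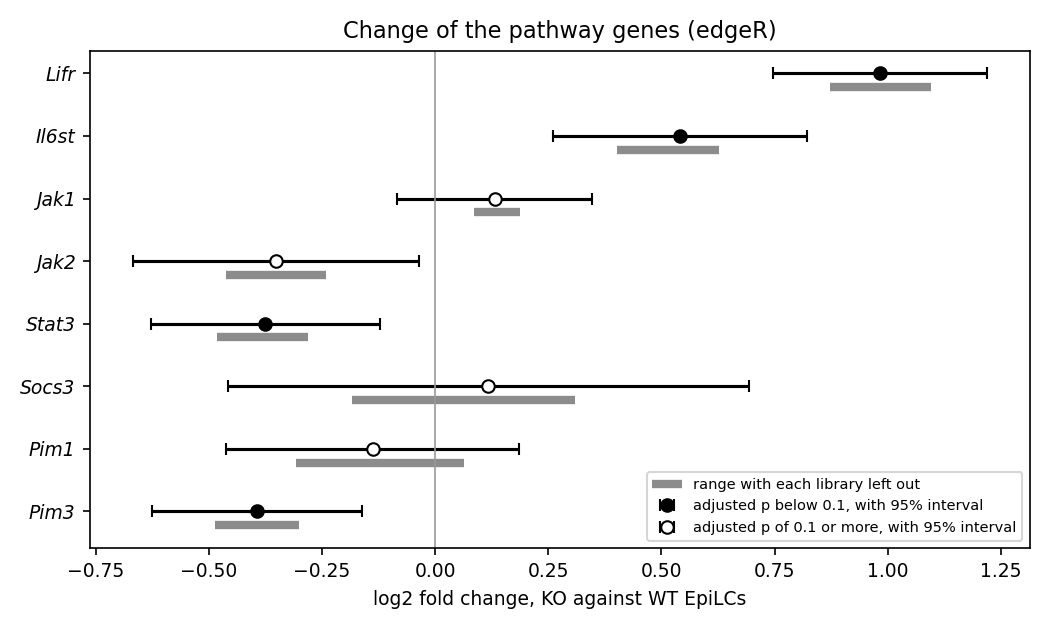
Log2 fold change of the 8 genes, KO against WT EpiLCs, with 95% confidence intervals from edgeR, filled points marking an adjusted p below 0.1. Grey bars give the range of the fold change when each of the 6 libraries was left out in turn. Lifr stays between 0.87 and 1.09, whereas the ranges of Socs3 and Pim1 cross 0.

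Levels of different genes were compared per kb of annotated exon. In WT EpiLCs the order was Pim3 (35.7 CPM per kb), Pim1 (19.2), Jak1 (5.51), Stat3 (4.19), Lifr (3.48), Jak2 (3.20), Il6st (1.89) and Socs3 (1.01). Pim3 and Pim1 were thus far above the receptor, the kinases and Stat3. In WT, Lifr ran from 2.95 to 4.001 and Jak2 from 2.90 to 3.51 CPM per kb, so that these neighbours in the order overlapped. Stat3, from 4.08 to 4.36 CPM per kb, lay above Lifr in every library. In KO EpiLCs Lifr moved from rank 5 to rank 3, at 6.89 CPM per kb, above Jak1 (6.04) and Stat3 (3.23). With the length of the longest transcript in place of all exons it moved from rank 5 to rank 4.

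**Figure D3:**
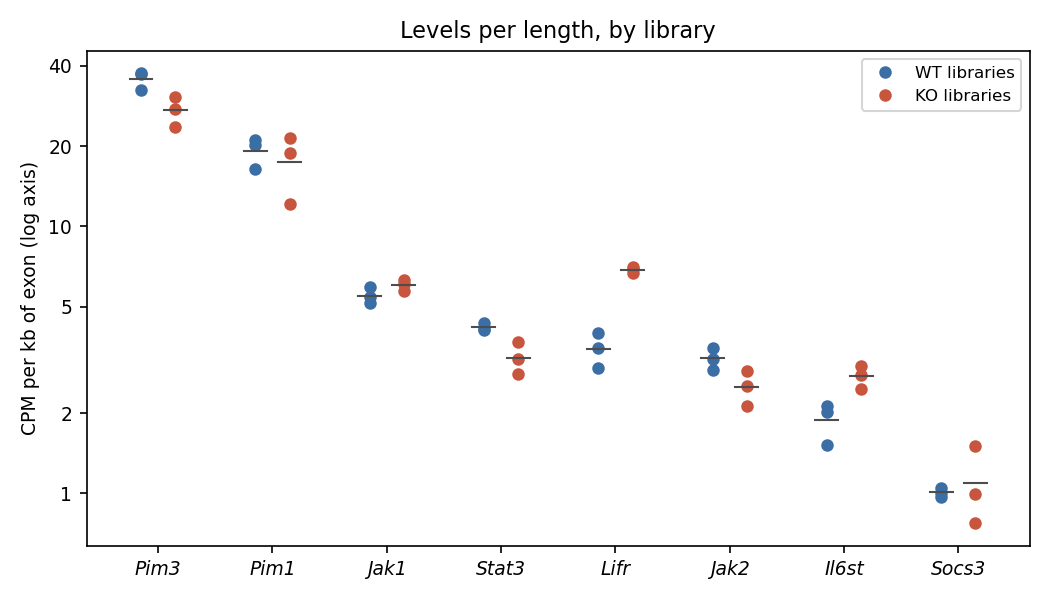
Levels of the 8 genes per kb of annotated exon, in CPM per kb on a log axis, with each WT library in blue, each KO library in red and the mean of 3 as a bar. Genes are ordered by their WT mean, from Pim3 at 35.7 to Socs3 at 1.01 CPM per kb. Lifr lies below Stat3 in WT and above it in KO.

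The balance between the receptor chains and their partners was compared as ratios of these per-length levels. The ratio of Lifr to Il6st was 1.95, 1.64 and 1.98 in WT and 2.82, 2.23 and 2.54 in KO, without overlap. Its means were 1.86 ± 0.188 and 2.53 ± 0.295 (SD, n = 3), and an exact two-sided permutation test gave p = 0.10, the smallest that 3 against 3 libraries allow. The test treated the libraries as unpaired and did not use their paired numbers. Over the 10 ratios and shares compared, the Benjamini-Hochberg adjusted value of this exact test was 0.333. The ratio of Lifr to Stat3 was 0.83 ± 0.124 in WT and 2.16 ± 0.242 in KO. Its groups could not overlap, since Lifr rose and Stat3 fell in KO, each without overlap. The exact p, again 0.10, follows from this and adds no evidence to the calls of Lifr and Stat3. Jak2 made up 21.2% ± 1.85 of the per-length level of the 4 JAK genes in WT and 16.02% ± 1.27 in KO (SD, n = 3), and the groups did not overlap. The exact permutation test gave this share p = 0.10 as well, with an adjusted value of 0.333. Jak1 made up 36.4% ± 1.396 and 38.7% ± 1.90, and Tyk2 34.0% ± 3.64 and 38.3% ± 0.945. Stat3 made up 28.7% ± 1.42 of the 7 STAT genes in WT and 26.6% ± 1.86 in KO, with overlap. Pim3 made up 37.9% ± 5.01 and 39.3% ± 2.58 of the 3 Pim genes. The ratio of Socs3 to Stat3 was 0.241 ± 0.0061 in WT and 0.335 ± 0.0839 in KO, and the groups overlapped.

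For each gene called, genes among the 2 with the most similar levels over the 6 libraries are named by Pearson's r of log2 CPM, as a description. The 6 libraries fall into 2 genotypes, so a high r mainly repeats the difference between them. For Lifr they were Mpv17l (r = 0.999) and Tmem45a (r = 0.998), both on chromosome 16, for Il6st Slc5a4b (0.999) and Msh6 (0.996), for Stat3 Plekhg4 (0.992), and for Pim3 Nmnat2 (0.997) and Phactr2 (0.996).

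The genes around each of the 8 were examined in windows chosen after the data were seen. Within 500 kb of Stat3, 37 genes were tested, and 13 of them were lower in KO and 0 higher. The 13 had log2 fold changes from −2.90 to −0.37. The median log2 fold change of the 37 genes was −0.32, close to the −0.38 of Stat3. Of 9583 genes with at least 10 tested neighbours in such a window, 5.27% had a median as low or lower. These include genes of chromosome 6, whose median log2 fold change was −0.40, and the share without that chromosome was not computed. Within 1000 kb the counts were 0 higher and 22 lower of 60 genes (median −0.24), and within 5000 kb they were 8 higher and 38 lower of 192 (median −0.065). The share of genes with a median as low or lower was 6.77% within 1000 kb, 12.45% within 2000 kb and 24.9% within 5000 kb. Among the 13 was Stat5b, a further STAT, which lies beside Stat5a and Stat3. Stat5a overlaps the annotation of Stat3 on the opposite strand, with 222 counts over the 6 libraries and a log2 fold change of −0.43 (adjusted p = 0.366). The part of the surrounding genes in the difference of Stat3 was not tested.

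Around Lifr few genes passed the filter on low counts. Within 500 kb, Rictor and Gm7666 were tested, at 0.16 and 0.21 on the log2 scale. The neighbouring receptor gene Osmr had 3 counts in all 6 libraries. Within 2000 kb none of 19 genes tested was called, and the median was 0.14, while Lifr was at 0.98. Around Il6st 1 of 7 genes tested was called, Ccno at 1.39, and the median was 0.19. Within 500 kb of Jak1 4 of 7 genes were called, all higher, with a median of 0.41, where 11.8% of all genes were called higher. Within 1000 kb 6 of 14 were called, all higher (median 0.37). A median as high or higher was found for 4.72% of genes with at least 10 tested neighbours, those of chromosome 16 included. Within 500 kb of Jak2, Socs3, Pim1 and Pim3, between 16 and 17 genes were tested and medians ran from −0.17 to −0.023. Around Pim3, 0 genes were called higher and 3 lower (median −0.17), and within 1000 kb 0 higher and 4 lower of 24 (median −0.22). In that window 7.48% of genes with at least 10 tested neighbours, those of chromosome 6 included, had a median as low or lower. The share was 15.9% within 500 kb, 8.31% within 2000 kb and 12.8% within 5000 kb. Within 500 kb of Socs3, 0 were called higher and 4 lower, and around Jak2 and Pim1, 2 higher and 2 lower each. The part of the surrounding genes in the values of Jak1 and Pim3 was not tested either. The medians of the chromosomes that hold the 8 genes were between −0.039 and 0.065.

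**Figure D4:**
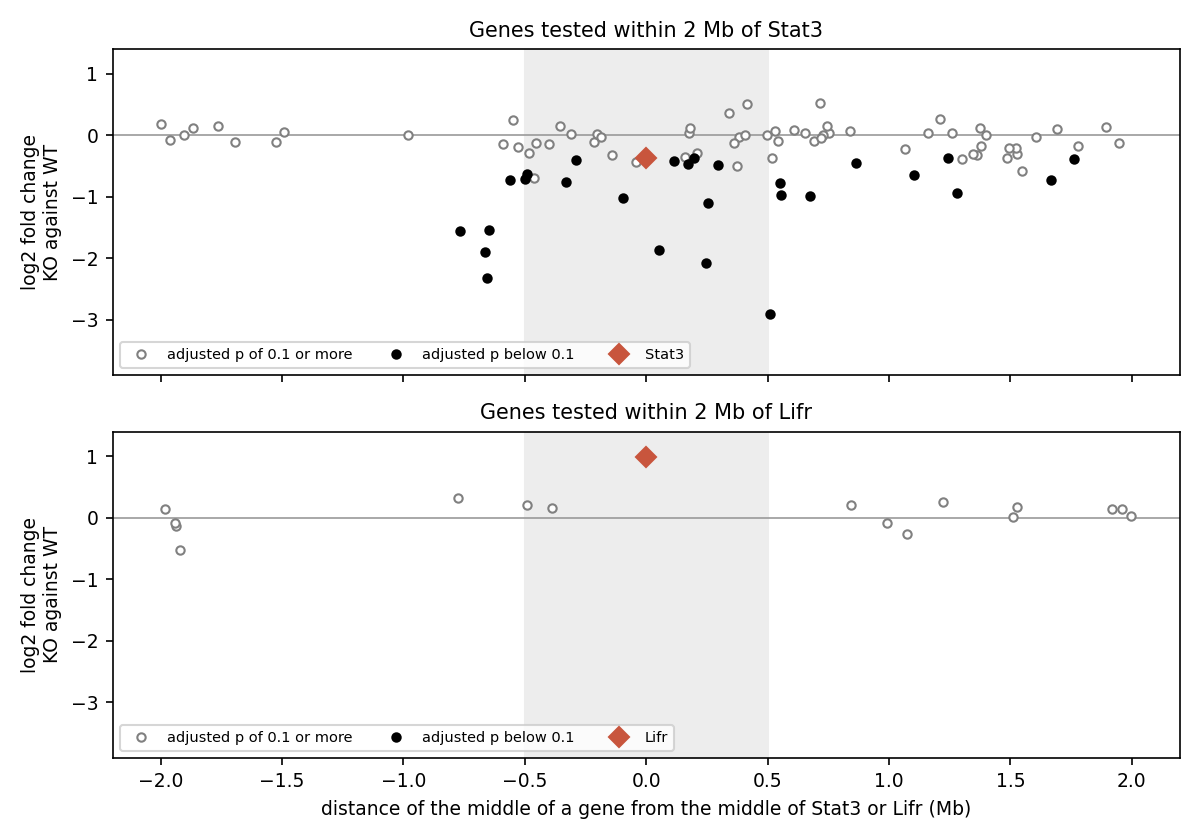
Log2 fold changes of the genes tested within 2 Mb of Stat3 (top) and Lifr (bottom), KO against WT EpiLCs, against the distance between the middles of the genes in Mb. Filled points have an adjusted p below 0.1, the diamond is Stat3 or Lifr, and the shaded band reaches 0.5 Mb to each side. Several called genes around Stat3 lie below 0 and none above, whereas no gene around Lifr is called.

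Beyond the 8 genes, 72 others of the pathway were followed in 6 lists, and 61 of them passed the filter on low counts. Of these, 18 were called, 6 higher and 12 lower, which is 29.5% beside 24.3% of all genes tested. Their median log2 fold change was −0.14.

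Ligands of the family were scarce. Of 10 cytokines, 4 were tested and 1 was called, 25% beside 24.3% of all genes tested. Clcf1, a ligand of the CNTF receptor, fell from 1.25 ± 0.190 to 0.393 ± 0.217 CPM (SD, n = 3), a log2 fold change of −1.66 (adjusted p = 0.0271), on 2 to 21 counts per library. Without KO replicate 3 its change was −1.26 with an adjusted p of 0.144. Lif itself was at 4.40 ± 0.729 CPM in WT and 4.33 ± 1.07 CPM in KO (log2 fold change −0.019, adjusted p = 0.972). Ctf1, cardiotrophin 1, was at 2.08 and 1.68 CPM. Il6 and Il27 had 0 counts in every library, which allows 0.202 to 0.273 CPM, 3 counts per library.

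Other receptor chains held 5 genes, of which 4 were tested and 0 called by edgeR at an adjusted p below 0.1. Cntfr, the chain that binds CNTF, was at 3.01 ± 1.66 CPM in WT and 1.67 ± 0.589 CPM in KO (−0.86, unadjusted p = 0.0393 in edgeR, adjusted p = 0.141). With the replicate block its change was −0.80 with an adjusted p of 0.0611. It was also called without WT replicate 2 (−1.07, adjusted p = 0.0833), without WT replicate 3 (−1.07, adjusted p = 0.0919) and without KO replicate 1 (−1.18, adjusted p = 0.0856). However, WT replicate 1 was at 4.93 CPM and WT replicates 2 and 3 at 2.01 and 2.10 CPM. Without WT replicate 1 the change of Cntfr was only −0.30 and was not called. Il11ra1 was at 3.34 and 3.56 CPM and Il6ra at 1.90 and 1.31 CPM, neither called. The 4 chains were not called higher, as Lifr and Il6st were, and the differences between them and Lifr were not tested.

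Of the 8 other JAKs and STATs, all tested, 1 was called, 12.5% beside 24.3% of all genes tested. Stat5b, which carries signals of growth hormone and other cytokines, fell from 9.67 ± 2.40 to 4.77 ± 0.993 CPM (SD, n = 3), with a log2 fold change of −1.02 (adjusted p = 0.00335). Tyk2, the JAK gene with the highest CPM in the list, was at 44.9 ± 4.45 and 52.5 ± 5.94 CPM (0.23, adjusted p = 0.204). Stat6 was at 32.0 and 29.2 CPM and Stat2 at 20.1 and 18.4 CPM, neither called.

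Of 14 negative regulators, all tested, 3 were called higher and 1 lower in KO, 28.6% beside 24.3% of all genes tested. Pias2, which encodes an inhibitor of STAT activity, rose from 109 ± 6.30 to 159 ± 2.49 CPM (0.55, adjusted p = 3.78e-04). Ptpn6, the phosphatase SHP-1, rose from 17.8 ± 2.45 to 25.2 ± 2.47 CPM (0.51, adjusted p = 0.0169). Socs1, a JAK inhibitor, rose from 7.82 ± 1.47 to 11.5 ± 2.81 CPM (0.55, adjusted p = 0.0701), with overlapping groups. Its call was lost without WT replicate 1 (0.43, adjusted p = 0.214), WT replicate 2 (0.52, 0.150), KO replicate 2 (0.37, 0.321) or KO replicate 3 (0.54, 0.153). Socs2, a STAT5-induced inhibitor, fell from 116 ± 2.94 to 92.9 ± 6.61 CPM (−0.33, adjusted p = 0.0224), and without KO replicate 1 by 0.27 (adjusted p = 0.123). Not called were Ptpn2 (98.8 and 108 CPM), Socs6 (71.4 and 63.9 CPM) and Ptpn1 (36.2 CPM in both). Socs1 lies on chromosome 16, whose genes had a median log2 fold change of 0.55, and Ptpn6 on chromosome 6, whose median was −0.40. The part of the chromosome in these values was not tested.

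**Figure D5:**
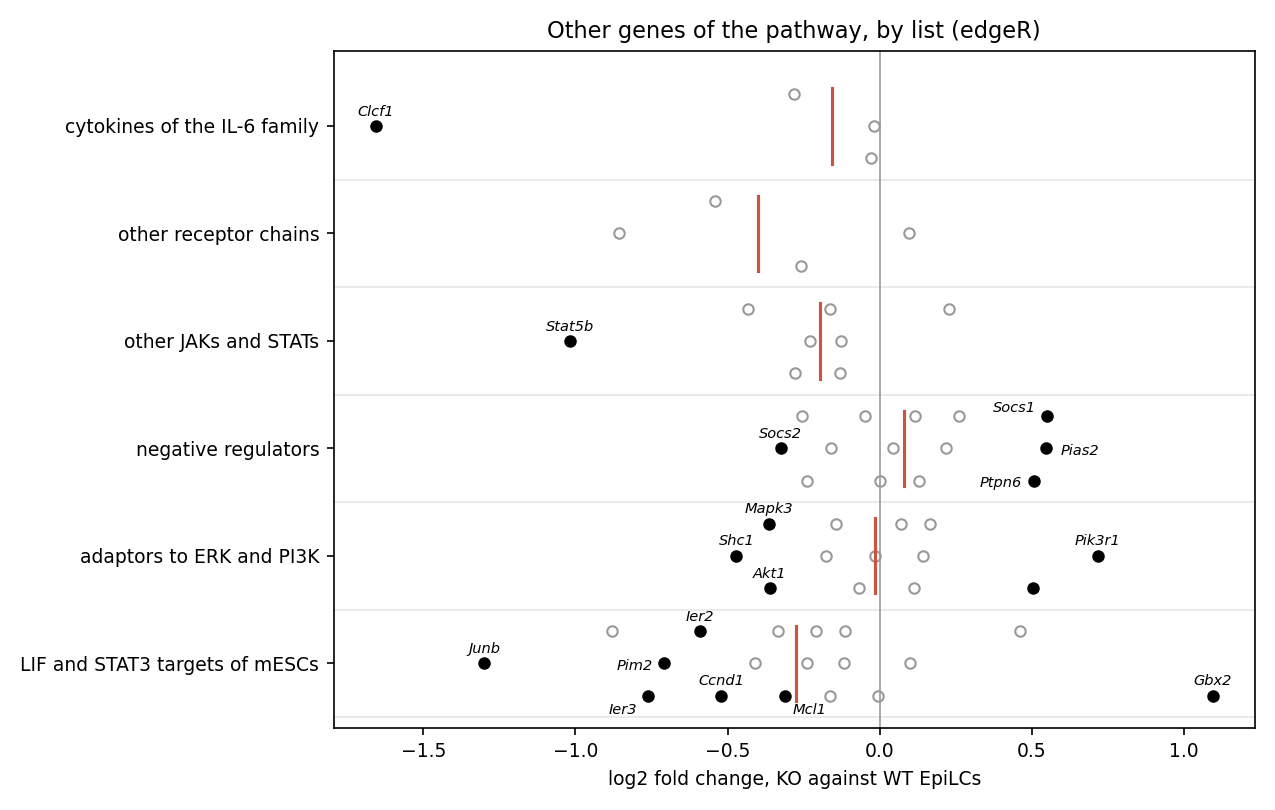
Log2 fold changes of the 61 tested genes of the 6 further lists, KO against WT EpiLCs, with filled points for an adjusted p below 0.1, named where described in the text, and a red bar for the median of each list. Points are set apart vertically only for legibility. LIF and STAT3 targets have 6 called genes below 0 and Gbx2 above, at 1.09.

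The 13 adaptors that link the receptor to ERK and PI3K signalling were all tested, with 2 called higher and 3 lower. That is 38.5%, beside 24.3% of all genes tested. Pik3r1, the regulatory subunit of PI3K, rose from 22.8 ± 3.87 to 37.6 ± 4.43 CPM (0.72, adjusted p = 0.00105). Shc1, an adaptor of receptor signalling, fell from 198 ± 12.6 to 143 ± 14.97 CPM (−0.47, adjusted p = 0.00276). Akt1, a kinase downstream of PI3K, fell from 49.95 ± 4.23 to 38.9 ± 2.05 CPM (−0.36, adjusted p = 0.0274). Mapk3, encoding ERK1, fell from 38.7 ± 5.64 to 30.0 ± 2.27 CPM (−0.36, adjusted p = 0.0502). Without WT replicate 2, Akt1 was at −0.32 (adjusted p = 0.103) and Mapk3 at −0.25 (adjusted p = 0.255), and 3 adaptors were called in place of 5. Without KO replicate 2, Akt1 was at −0.32 (adjusted p = 0.123). Mapk3 was not called without KO replicate 1 (−0.31, adjusted p = 0.175) or KO replicate 3 (−0.37, adjusted p = 0.119) either. Gab1 (212 and 229 CPM) and Map2k1 (167 and 165 CPM) were not called.

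The last list held 22 genes linked to the response of mESCs to LIF, some of them known as STAT3 targets and others, such as Tbx3, Fos and Egr1, better known to respond through PI3K or ERK signalling. Of the 22, 18 were tested, and 6 were called lower and 1 higher in KO. That is 38.9%, beside 24.3% of all genes tested, with 12.5% of all genes lower. The median log2 fold change of the 18 was −0.28, beside 0.0014 over all genes. Gbx2, a homeobox factor that can sustain self-renewal, rose from 3.83 ± 1.16 to 8.21 ± 0.310 CPM (SD, n = 3), a log2 fold change of 1.09 (adjusted p = 0.00197). Junb, an immediate early gene that growth factor signalling also induces, had the largest decrease on the log2 scale among the 18. It was counted at 29.7, 26.1 and 27.5 CPM in WT and at 10.4, 11.9 and 11.6 CPM in KO, widely apart, a difference of −1.30 on the log2 scale with a standard error of 0.14 and an adjusted p of 3.83e-06. Ier2, a further immediate early gene, fell from 63.4 ± 7.80 to 42.0 ± 8.12 CPM (−0.59, adjusted p = 0.00412). Ier3, of the same class, fell from 6.02 ± 2.46 to 3.50 ± 1.11 CPM (−0.76, adjusted p = 0.0806) with overlapping groups. The call of Ier3 was lost without WT replicate 2 (−0.40, adjusted p = 0.440), KO replicate 1 (−0.59, 0.257) or KO replicate 2 (−0.69, 0.183).

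Pim2, the third Pim kinase, whose promoter is shown above with its octamers, was counted at 146, 104 and 86.6 CPM in WT and at 73.5, 75.2 and 57.4 CPM in KO. The groups did not overlap, and the difference was −0.71 on the log2 scale, with a standard error of 0.15 and an adjusted p of 0.00231. Pim2 and Pim3 were both lower in KO, therefore, while Pim1 did not pass. Ccnd1, encoding cyclin D1, fell from 252 ± 12.3 to 175 ± 33.4 CPM (−0.52, adjusted p = 0.00345), and Mcl1, encoding an inhibitor of apoptosis, from 661 ± 20.2 to 532 ± 5.596 CPM (−0.31, adjusted p = 0.0186). Sall4 (134 and 120 CPM), Tfcp2l1 (29.4 and 31.5 CPM), a STAT3 target that can sustain naïve cells, and Icam1 (28.6 and 28.4 CPM) were not called. Egr1, Bcl3, Bcl6 and Mras did not pass the filter.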

How the data were processed

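RNA-seq libraries of WT and Oct6 KO 46C EpiLCs (3 each) were prepared with a stranded total RNA kit after depletion of ribosomal RNA. The authors trimmed reads with Fastp, used the aligner STAR in two-pass mode on GRCm39, and deposited its raw counts per gene, not normalized or filtered. The annotation release and the use of the strand are not given in the sources used here. Identifiers were matched to GENCODE M39 for names, exons and positions, 54749 of 55416.

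Differences were tested in R 4.3.3 with edgeR 4.0.16 (TMM, filterByExpr with a minimum count of 10, quasi-likelihood test, genotype only, Benjamini-Hochberg over 15746 genes). Standard errors follow from the F statistic. With a biological coefficient of variation of 11.7% and 3 libraries a group, these errors carry the precision. Alternatives were RLE factors, library totals, no filter, 10 counts in every library, DESeq2 1.42.0, a replicate block, a threshold of 0.05 and fits without each library in turn. The fits were tested on simulated data, and no result of that is used here.

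The 8 genes and all lists were chosen with earlier results of these data known. Named were the 8 genes and, per list, each gene called and up to 3 others with the highest CPM, apart from genes named for their position, promoter or similarity. A few genes that meet this rule are not reported here.

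Replicates carry paired numbers. Deviations from group means over 13228 genes correlated at 0.253, 0.302 and 0.124 between libraries with the same number. Between others they correlated at −0.228 to −0.0386. The deviations of a group sum to 0, so the negative values partly follow from the positive ones. Libraries with the same number were more alike than others, and the replicate block takes the numbers as pairs. Libraries of a group were not copies, with a chi-square per degree of freedom of 6.94 to 11.8.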

Additional observations from a re-analysis of the deposited data

How the results depend on the processing

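Lifr and Il6st kept their direction and their call under all 13 alternatives, from 0.87 to 1.09 and from 0.40 to 0.63. Between 3 and 5 of the 8 genes and 15 to 20 of the list genes were called, and 2989 to 4764 of all genes. With the replicate block, Jak2 was called (−0.35, adjusted p = 0.0518), as was Cntfr, and no other call among the 8 genes changed. With libraries left out, Jak2 ran from −0.46 to −0.24, Stat3 from −0.48 to −0.28, Pim3 from −0.49 to −0.30, Socs3 from −0.18 to 0.31 and Pim1 from −0.31 to 0.063. In the same way Lif ran from −0.24 to 0.12, Ctf1 from −0.55 to 0.094, Il11ra1 from −0.13 to 0.22, Ptpn1 from −0.099 to 0.11, Map2k1 from −0.098 to 0.048, Icam1 from −0.096 to 0.087 and Tfcp2l1 from −0.031 to 0.19, none of them called. Ptpn1 was also below 0 with library totals (−0.025), no filter (−0.0062), 10 counts in every library (−0.00065) and DESeq2 (−0.00022). DESeq2 did not call Socs1 (adjusted p = 0.109) or Ier3 (adjusted p = 0.119), and Mapk3 did not pass 0.05. With the longest transcript, the ratio of Lifr to Il6st was 1.47 in WT and 2.01 in KO. The causes were not tested. At 34 to 71 counts per library, Socs3 has the widest interval of the 8 genes, and the 3 libraries of the KO clone cannot show how other clones vary.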
